A study of Mus musculus with 8 samples.

Results

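The genes of the TGF-beta and BMP pathway were followed in BMEL cells with and without ectopic GRHL2, an epithelial transcription factor. Members were chosen by symbol from a list of ligands, receptors, SMADs, inhibitors and target genes, and all 42 listed symbols were among the 18671 genes of the expression table. BMEL cells are a line of bipotential liver cells from the mouse embryo, and RNA-seq covered 8 samples taken 48 h after transfection. The GRHL2 group (n = 4) received a plasmid with Flag-tagged human GRHL2 cDNA driven by the EEF1A1 promoter, and the pcDNA group (n = 4) received the pcDNA3 vector. Since that plasmid encodes eGFP as well, GRHL2 is not the only difference between the plasmids. All samples were grown on collagen in medium with serum, IGFII, EGF and insulin, and no member's ligand was listed among the supplements. The cells are of 1 line and were measured in bulk, so that a change in few cells and a smaller change in all cells, or fewer cells of a type and less RNA per cell, cannot be told apart.

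TGF-beta, activins and BMPs are secreted dimers that assemble pairs of type I and type II serine/threonine kinase receptors. TGF-beta is released as a latent complex tied to the matrix by latent TGF-beta binding proteins, whereas secreted antagonists such as follistatin, gremlin and noggin capture activins or BMPs before they reach a receptor. The receptors phosphorylate SMAD2 and SMAD3 (TGF-beta and activin) or SMAD1 and SMAD5 (BMP), which join SMAD4 in the nucleus, and SMAD6, SMAD7, SMURF, SKI and TGIF proteins restrain the signal. In the developing liver, TGF-beta signalling is known for its part in directing bipotential progenitors towards bile duct cells.

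The values are on a log2 scale per transcript length, so a difference of 1 is a 2-fold change. The length is a mean over a gene's annotated transcripts, so the order of levels between genes depends on it and is approximate. They derive from the regularized logarithm (rlog) of DESeq2, which pulls the samples of a gene with few reads together, so that differences and spreads of low genes are understated. Grhl2 itself, by its mouse symbol, was at 6.30, 6.96, 5.65 and 6.05 in GRHL2 replicates 1 to 4 and at 4.68, 4.57, 4.42 and 4.44 in pcDNA replicates 1 to 4. Its log2 fold change was 1.71 (SE 0.22, adjusted p = 0.00100). Of 13 liver progenitor markers, all were in the table, with Krt8 at 15.31, Hnf4a at 11.16, Afp at 8.32 and Alb at 5.25 in pcDNA cells. Of the other cell types, 5 of 7 endothelial, 6 of 9 blood and macrophage and 6 of 8 stellate and mesenchymal markers were in the table. The log2 of their summed values ran from 4.57 to 4.60 in pcDNA and 4.54 to 4.66 in GRHL2 samples for endothelial markers, from 6.70 to 6.86 and 6.86 to 6.93 for blood and macrophage markers, and from 5.8 to 6.0 and 5.9 to 6.1 for stellate and mesenchymal markers. In pcDNA cells the markers of these lists ran from 1.23 (Cdh5) to 3.33 (Pecam1) for endothelial cells, from 0.90 (Ptprc) to 6.08 (Cd68), with Csf1r at 4.48, for blood and macrophages, and from -0.23 (Pdgfrb) to 5.22 (Col1a1) for stellate and mesenchymal cells. The median over all genes and samples was 6.45. The sum over the progenitor markers ran from 16.59 to 16.77 in pcDNA and from 16.75 to 16.91 in GRHL2 samples. Of the 30 markers, 4 were called higher (13.3%) and 1 lower (3.33%) in the test described below, against 10.5% and 5.91% of all genes. With the replicate number as a block, 12 were higher (40%) and 2 lower (6.67%), against 18.2% and 13.9% of all genes. Those called without the block were as follows. The progenitor markers Prox1 (0.47, adjusted p = 0.000760) and Foxa1 (0.21, 0.0320) rose and Afp (-0.21, 0.0124) fell, and the mesenchymal markers Pdgfrb (0.11, 0.00886) and Reln (0.11, 0.0164) rose. The part of these cell types in the results was not tested.

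Most members did not pass in the fit without replicate numbers. At an adjusted p under 0.05 (limma), 6 of the 42 members were higher in GRHL2 cells (Bmp7, Inhbb, Bmp1, Ltbp2, Bmp4 and Grem1), 1 was lower (Fst), and 35 did not pass. These are 14.3% higher and 2.38% lower, against 10.5% and 5.91% of all genes. The 7 comprise 3 ligands, a protease, a matrix protein and 2 antagonists. No receptor, SMAD, intracellular inhibitor or target gene passed in this fit, and the roles were not tested against each other. The median log2 fold change was 0.025 over the members and 0.0066 over all genes. When the replicate number was entered as a block, 15 members were higher and 6 lower (35.7% and 14.3%, against 18.2% and 13.9% of all genes), including all 7 called without it. The members gained were then spread over every role, with Acvr1b and Tgfbr3 among the receptors, Smad1 among the signalling SMADs, Smad6, Ski, Skil and Smurf2 among the intracellular inhibitors and Id3 and Id4 among the targets. The split of calls over all genes depended on scaling, with 63.9% of calls being higher as deposited, 75.9% after an equal upper quartile and 77.0% after an equal sum. All 4 GRHL2 samples lay above all 4 pcDNA samples for 9 members and below them for 2, against 14.3% and 9.47% of all genes.

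**Figure D1:**
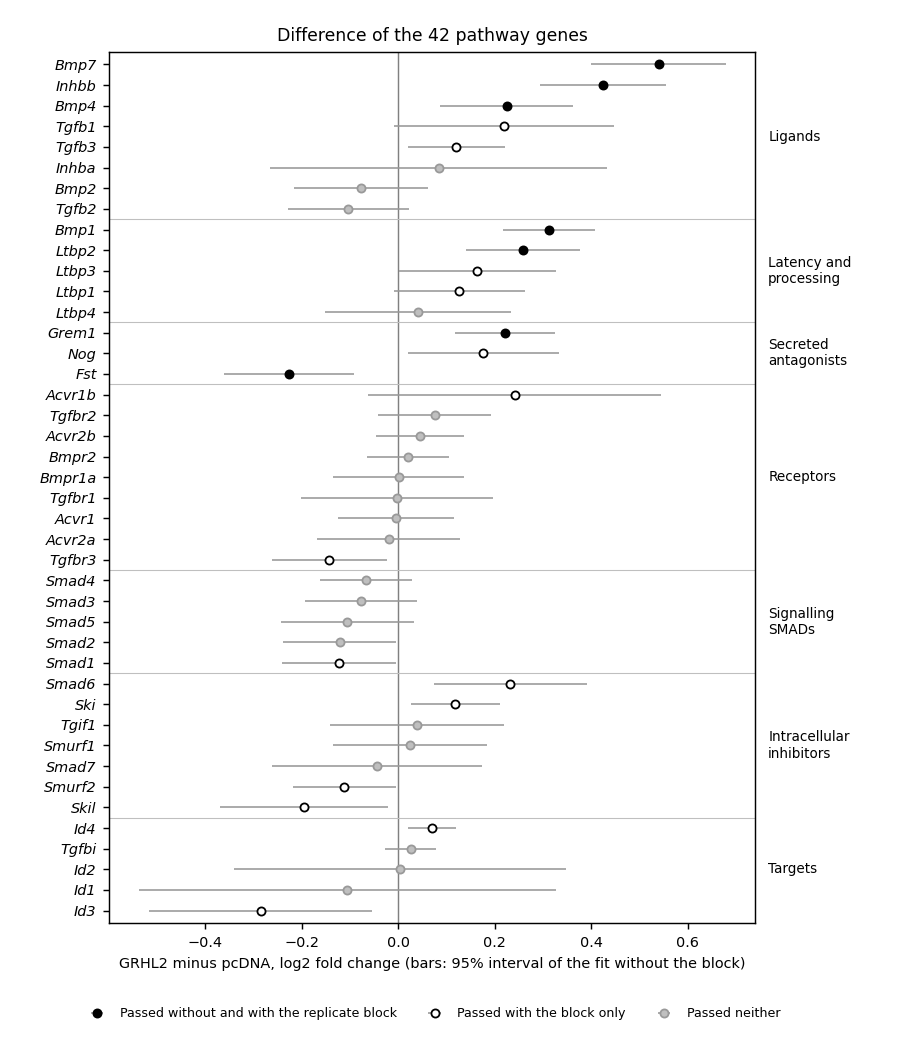
Log2 fold change (GRHL2 minus pcDNA, x axis) of each of the 42 members, grouped by role, with the 95% interval of the fit without the replicate block. Filled black points passed the test in both fits, open points with the block only and grey points in neither; the 7 black points are Bmp7, Inhbb, Bmp4, Bmp1, Ltbp2, Grem1 and Fst.

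Promoters are shown for those called members that have an entry in the reference. RefSeq promoter entries (GRCm38.p6) were matched by symbol for 30 of the 42 members, and Bmp1, Bmp2, Bmp7, Fst, Id1, Nog, Skil, Smad2, Smad4, Smad7, Tgfb3 and Tgfbr3 had none. The 270 bases from 250 before to 20 after the start are printed for the 4 called members with an entry and for Smad6, which was chosen after its sequence and values were seen. All 5 lie on the minus strand, and each sequence reads 5′ to 3′ along its gene. The letters of 4 motifs were searched on both strands, and capitals mark their matches.
Inhbb (chr1:119422229-119422498): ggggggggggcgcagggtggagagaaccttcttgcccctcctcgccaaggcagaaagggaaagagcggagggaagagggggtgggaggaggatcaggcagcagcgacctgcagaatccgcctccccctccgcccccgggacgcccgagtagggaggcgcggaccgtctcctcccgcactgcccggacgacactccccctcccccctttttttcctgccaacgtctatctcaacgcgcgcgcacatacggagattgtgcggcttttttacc
Bmp4 (chr14:46390650-46390919): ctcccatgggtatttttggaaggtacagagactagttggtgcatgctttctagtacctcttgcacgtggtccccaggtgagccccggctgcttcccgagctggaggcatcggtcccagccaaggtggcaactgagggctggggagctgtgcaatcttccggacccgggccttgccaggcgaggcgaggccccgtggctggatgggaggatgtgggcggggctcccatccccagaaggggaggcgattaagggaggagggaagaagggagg
Ltbp2 (chr12:84876472-84876741): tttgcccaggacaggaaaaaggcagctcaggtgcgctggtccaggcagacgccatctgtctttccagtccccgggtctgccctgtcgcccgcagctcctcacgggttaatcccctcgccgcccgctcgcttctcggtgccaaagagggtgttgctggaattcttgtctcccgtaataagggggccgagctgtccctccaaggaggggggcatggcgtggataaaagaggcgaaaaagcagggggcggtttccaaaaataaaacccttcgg
Grem1 (chr2:113758629-113758898): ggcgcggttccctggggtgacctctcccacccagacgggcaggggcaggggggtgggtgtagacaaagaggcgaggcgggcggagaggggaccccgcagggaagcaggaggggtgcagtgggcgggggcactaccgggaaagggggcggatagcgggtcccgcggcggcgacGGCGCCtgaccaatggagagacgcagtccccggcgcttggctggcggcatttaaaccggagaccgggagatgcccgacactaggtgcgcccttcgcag
Smad6 (chr9:64022040-64022309): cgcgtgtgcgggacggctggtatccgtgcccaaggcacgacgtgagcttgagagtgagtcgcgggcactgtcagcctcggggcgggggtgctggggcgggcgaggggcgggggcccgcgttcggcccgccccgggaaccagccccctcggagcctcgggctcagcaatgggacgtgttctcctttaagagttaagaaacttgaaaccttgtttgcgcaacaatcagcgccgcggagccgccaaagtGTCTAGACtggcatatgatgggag
The motifs were the GRHL palindrome AACCGGTT, its looser form AACNNGTT (which overlaps every match of the first), the SMAD palindrome GTCTAGAC and the GC-rich SMAD element GGCGCC. AACCGGTT was in 0.128% of all 32851 promoter entries and in no member's, and AACNNGTT was in 3.86% of all entries and in those of Bmpr2 and Tgif1 only among the members. GTCTAGAC, found in 0.183% of all entries, lay across the start of Smad6, with 4 bases before it and 4 after. GGCGCC was in 10.4% of all entries and in 11 of the 30 members (30% of their 40 entries), Grem1 included, where its first base was 78 bases before the start. The members' entries were also richer in G and C, with a median of 64.6% against 52.6% for all entries, and the part of base composition in these shares was not tested. The entries of Inhbb, Bmp4 and Ltbp2 held none of these letters in this window.

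The ligands held the largest changes. Bmp7, a BMP of epithelial and kidney development (ENSMUSG00000008999, GRCm38 chr2:172868012-172940321, minus strand), was at 6.34, 6.51, 6.50 and 6.40 in GRHL2 replicates 1 to 4 and at 5.80, 5.84, 5.89 and 6.05 in pcDNA replicates 1 to 4. The lowest GRHL2 sample stood above the highest pcDNA sample. It rose by 0.54 (SE 0.063, adjusted p = 0.000550), or 45.4% on the linear scale, and replicates 1 and 2 (0.60) differed by about as much as replicates 3 and 4 (0.48). Inhbb, which encodes the beta B subunit of activin B (chr1:119415465-119422248, minus strand), was at 2.26, 2.50, 2.28 and 2.16 in GRHL2 samples against 1.88, 1.88, 1.86 and 1.87 in pcDNA samples. The pcDNA samples lay almost on top of each other, at a low level where the rlog understates spreads. Every GRHL2 sample was above them. Its log2 fold change was 0.42 (SE 0.058, adjusted p = 0.00134), with 0.50 over replicates 1 and 2 and 0.35 over replicates 3 and 4. Bmp4 (chr14:46383520-46390669, minus strand), a BMP that the mesenchyme of the embryonic liver region is known to supply, was at 6.71, 6.73, 6.73 and 6.89 in GRHL2 samples and 6.53, 6.40, 6.62 and 6.62 in pcDNA samples. The groups were apart by a narrow gap, and the rise of 0.22 (SE 0.062) had an adjusted p of 0.0348. Its call was lost (adjusted p from 0.0554 to 0.0880) without pcDNA replicate 1 or 2, or without GRHL2 replicate 1, 3 or 4. For each of these 3 ligands the exact two-sided permutation test gave p = 0.0286, the smallest that 4 samples against 4 allow.

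The 3 TGF-beta ligands did not pass without the block. Per transcript length, Tgfb1 was the highest ligand of the list, at 7.67 ± 0.17 (SD, n = 4) in pcDNA and 7.89 ± 0.17 in GRHL2 cells. Bmp4 and, with overlapping pcDNA samples, Bmp7 and Bmp2 (5.80 ± 0.039 in pcDNA) followed. The order below Tgfb1 depends on length. The rlog level over all samples was 8.09 for Tgfb1, 7.59 for Bmp2, 7.52 for Inhba, 7.38 for Bmp7 and 6.81 for Bmp4. In Tgfb1, replicates 3 and 4 stood above replicates 1 and 2 in both groups. The GRHL2 sample was the higher one in every same-numbered pair, by 0.24, 0.19, 0.25 and 0.19 in replicates 1 to 4. The log2 fold change of 0.22 had an adjusted p of 0.177 without the replicate block and 0.00234 with it. Tgfb3, at a low 2.05 ± 0.039 in pcDNA cells, had a difference of 0.12 (adjusted p = 0.0995, or 0.0403 with the block). It also passed after scaling to an equal upper quartile (0.0492) or an equal sum (0.0452), but not with a term for replicates 1 and 2 against 3 and 4 in place of the block (0.0528). Tgfb2 had one of -0.10 (adjusted p = 0.244) and was the lower sample in all 4 pairs, whereas Bmp2 (-0.078, interval -0.22 to 0.062) and Inhba, the beta A subunit of activin A (0.084, interval -0.27 to 0.43), had pairs of either sign.

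**Figure D2:**
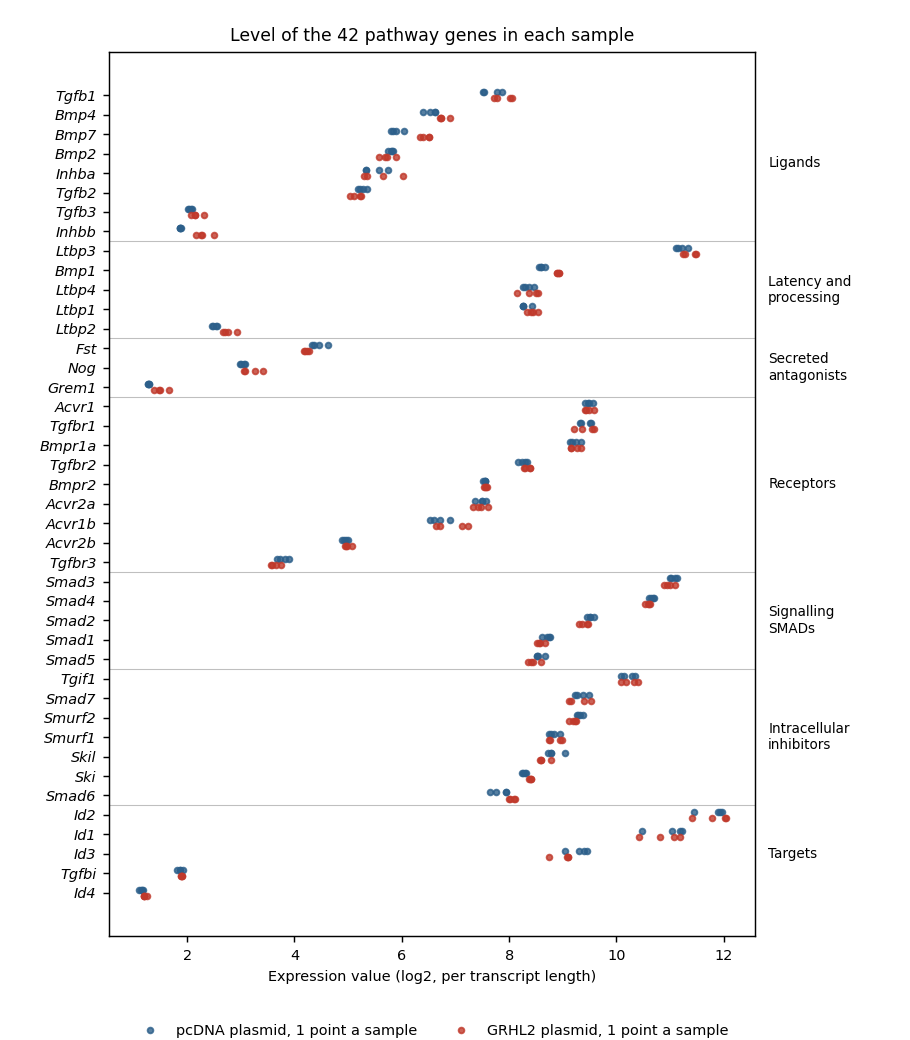
Expression value (log2 per transcript length, x axis) of the 42 members in each of the 8 samples, with pcDNA samples in blue and GRHL2 samples in red, 1 point a sample. The members span about 1.1 to 12, with Id2 the highest and Id4 the lowest, and the groups overlap in all but 11 genes.

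Without the block, 2 of the 5 proteins that hold or process the ligands rose (40%) and none fell. The shares of all genes were 10.5% and 5.91%. Bmp1, a metalloprotease that despite its name is not a ligand but trims procollagens and the BMP antagonist chordin (ENSMUSG00000022098, chr14:70474558-70520234, minus strand), was at 8.94, 8.89, 8.94 and 8.90 in GRHL2 samples and 8.56, 8.59, 8.60 and 8.66 in pcDNA samples. Both groups were tight and did not meet. The log2 fold change of 0.31 (SE 0.043, adjusted p = 0.00129) held over replicates 1 and 2 (0.34) as over replicates 3 and 4 (0.29). Ltbp2, a fibrillin-binding matrix protein of the latent TGF-beta binding family (chr12:84783212-84876532, minus strand), was at 2.75, 2.93, 2.66 and 2.71 in GRHL2 samples and 2.47, 2.56, 2.53 and 2.46 in pcDNA samples. It rose by 0.26 (SE 0.053, adjusted p = 0.0101) with no overlap between the groups. Ltbp3, which carries latent TGF-beta, was the most abundant of the 5 at 11.20 ± 0.097 in pcDNA cells. Its difference of 0.16 had an adjusted p of 0.157, or 0.00713 with the block, and 0.00603 with the term for replicates 1 and 2 against 3 and 4. Ltbp1 had a difference of 0.13 with adjusted p-values of 0.186 and, with the block, 0.0305, which that term did not keep (0.108). Ltbp4 (0.040, interval -0.15 to 0.23) passed neither.

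Of the 3 secreted antagonists, 1 rose and 1 fell (33.3% each, against 10.5% and 5.91% of all genes). Fst, which encodes follistatin, an activin-binding protein (ENSMUSG00000021765, chr13:114452290-114458951, minus strand), was at 4.24, 4.26, 4.17 and 4.20 in GRHL2 samples and 4.45, 4.63, 4.33 and 4.37 in pcDNA samples. Every GRHL2 sample was below every pcDNA sample, with pcDNA replicate 2 the highest. Its log2 fold change was -0.23 (SE 0.060, adjusted p = 0.0295), and the call was lost (adjusted p from 0.0588 to 0.0754) without pcDNA replicate 1 or without GRHL2 replicate 1, 3 or 4. Grem1, the BMP antagonist gremlin (chr2:113746164-113758646, minus strand), was at 1.49, 1.65, 1.38 and 1.48 in GRHL2 samples and 1.29, 1.28, 1.28 and 1.27 in pcDNA samples, near the lower end of the table. It rose by 0.22 (SE 0.046, adjusted p = 0.0110). Nog, the BMP antagonist noggin, had GRHL2 samples at 3.21 ± 0.17 and pcDNA samples at 3.03 ± 0.045. Its difference of 0.18 had an adjusted p of 0.119, or 0.0179 with the block, and was 0.27 in replicates 1 and 2 against 0.084 in replicates 3 and 4.

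**Figure D3:**
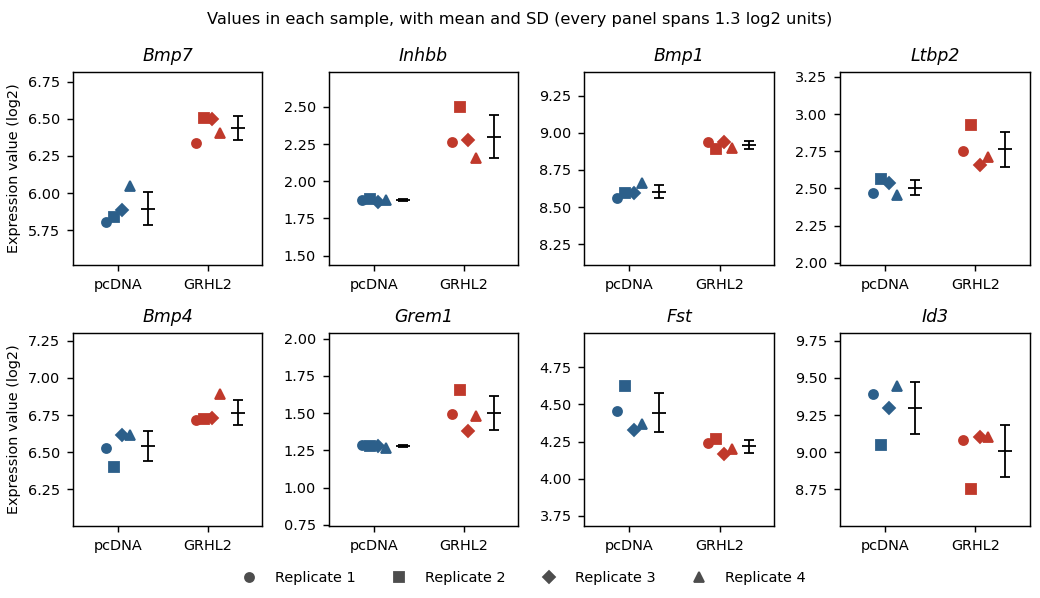
Expression value (log2, y axis) of the 7 called members and Id3 in each sample, with the replicate number as the symbol and the mean ± SD beside each group of 4. The groups do not overlap in the 7 called genes, and in Id3 replicate 2 is the lowest sample of each group. Every panel spans the same range.

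None of the 9 receptors passed without the block, where 10.5% of all genes were higher and 5.91% lower. The 95% intervals of all but Acvr1b excluded a difference as large as that of Bmp7. Per transcript length, the type I receptors Acvr1 (9.48), Tgfbr1 (9.42) and Bmpr1a (9.23) were the highest in pcDNA cells. The type II receptors Tgfbr2 (8.26), Bmpr2 (7.54) and Acvr2a (7.48) came next. That order depends on length, since the rlog level over all samples was 10.83 for Tgfbr2, 10.79 for Acvr1 and 10.75 for Tgfbr1. Bmpr1a differed by 0.00083 (95% interval -0.13 to 0.14), Acvr1 by -0.0051 (-0.13 to 0.12) and Tgfbr1 by -0.0026 (-0.20 to 0.20). The type II receptors differed by 0.076 (Tgfbr2, interval -0.042 to 0.19), 0.020 (Bmpr2, -0.065 to 0.10), -0.020 (Acvr2a, -0.17 to 0.13) and 0.045 (Acvr2b, -0.047 to 0.14). Acvr1b, the type I receptor of activin, was the exception among the type I receptors, with GRHL2 samples at 6.92 ± 0.29 and pcDNA samples at 6.68 ± 0.16. Its pairs differed by 0.099, 0.12, 0.41 and 0.34, and its adjusted p was 0.262 without the block and 0.0125 with it. Tgfbr3, the coreceptor betaglycan, had a difference of -0.14 (adjusted p = 0.0982, or 0.0465 with the block and 0.0619 with the term for replicates 1 and 2 against 3 and 4). Most of it came from replicates 1 and 2 (-0.23, against -0.052 in replicates 3 and 4).

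The 5 signalling SMADs were among the abundant members. None passed without the block, where 10.5% of all genes were higher and 5.91% lower. Per transcript length, Smad3 (11.06) and Smad4 (10.65) led in pcDNA cells, ahead of Smad2 (9.52), Smad1 (8.71) and Smad5 (8.56). In rlog level over all samples, Smad5 (10.17) stood above Smad1 (9.64). All 5 log2 fold changes were below 0, from -0.12 (Smad1, interval -0.24 to -0.0041) to -0.068 (Smad4, interval -0.16 to 0.028). Smad2 stood at -0.12 (adjusted p = 0.149), Smad5 at -0.11 (0.280) and Smad3 at -0.077 (0.354). Only Smad1 passed with the replicate block (adjusted p = 0.0462, against 0.148 without it and 0.0774 with the term for replicates 1 and 2 against 3 and 4). For Smad3 and Smad5 the difference lay in replicates 1 and 2 (-0.15 and -0.21) and was -0.0015 and -0.0017 in replicates 3 and 4.

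Of the 7 intracellular inhibitors, none passed without the block. With it 2 were higher and 2 lower (28.6% each, against 18.2% and 13.9% of all genes). Smad6, the inhibitory SMAD best known for blocking BMP receptors, was at 7.99, 8.03, 8.09 and 8.10 in GRHL2 samples and 7.76, 7.64, 7.94 and 7.93 in pcDNA samples. The GRHL2 samples were all higher, and the pcDNA samples differed more among themselves. Its log2 fold change of 0.23 (SE 0.071) had an adjusted p of 0.0518 without the block and 0.00634 with it. Scaling alone moved it past the threshold (0.0340 after an equal upper quartile and 0.0351 after an equal sum). Smad7, which blocks TGF-beta receptors and is induced by them, differed by -0.044 (interval -0.26 to 0.17). Ski and Skil encode related corepressors that bind SMADs, and they stood on opposite sides, with 0.12 for Ski (adjusted p = 0.0796, or 0.0339 with the block and 0.0418 after an equal upper quartile) and -0.20 for Skil (0.119, or 0.00466). The Skil pairs differed by -0.17, -0.27, -0.18 and -0.16. Smurf2, a ubiquitin ligase for SMADs and receptors, had all GRHL2 samples below the pcDNA samples, with a difference of -0.11 (adjusted p = 0.141, or 0.0459 with the block and 0.0543 with the term for replicates 1 and 2 against 3 and 4). Its relative Smurf1 (0.024) and the corepressor Tgif1 (0.038) passed neither fit.

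None of the 5 target genes passed without the block. With it 1 was higher and 1 lower (20% each, against 18.2% and 13.9% of all genes). Id1, Id2 and Id3 encode helix-loop-helix inhibitors that are classical direct targets of BMP-activated SMADs, and they were abundant in pcDNA cells, at 10.98 ± 0.35, 11.81 ± 0.24 and 9.30 ± 0.18 (SD, n = 4). Id3 (chr4:136143497-136145755, plus strand) was at 9.08, 8.75, 9.11 and 9.10 in GRHL2 samples and 9.39, 9.05, 9.30 and 9.45 in pcDNA samples. Replicate 2 was the lowest of each group and made the groups overlap, yet the GRHL2 sample was lower in all 4 pairs. Its log2 fold change of -0.29 (SE 0.10) had an adjusted p of 0.0896, or 0.000878 with the block and 0.0327 without pcDNA replicate 2. In Id1, which varied more between replicates than Id3, replicate 2 was again the lowest, at 10.41 in GRHL2 and 10.47 in pcDNA cells. Its difference of -0.11 (interval -0.54 to 0.33, adjusted p = 0.762, or 0.0882 with the block) was smaller than the spread between replicates. Id2 differed by 0.0034 (interval -0.34 to 0.35), with pairs of either sign. Id4 was the lowest member per transcript length (1.14 ± 0.035 in pcDNA cells). Its difference of 0.070 had an adjusted p of 0.0640, or 0.0233 with the block, 0.0202 after an equal upper quartile and 0.0161 after an equal sum. Tgfbi, a matrix protein named for its induction by TGF-beta, was also low (1.87 ± 0.044 in pcDNA cells) and differed by 0.025 (interval -0.027 to 0.078).

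**Figure D4:**
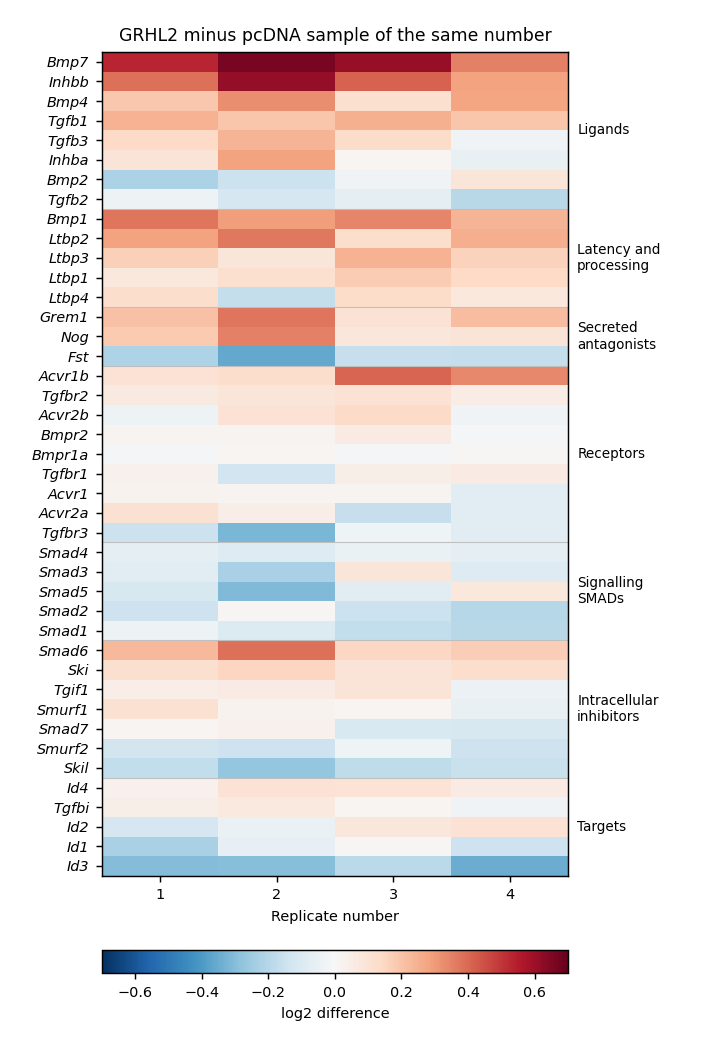
Difference between the GRHL2 and the pcDNA sample of the same replicate number (colour, log2) for the 42 members, with the replicate number on the x axis. Red is higher in GRHL2 cells. Bmp7, Inhbb and Bmp1 are red and Id3, Skil and Fst blue in all 4 pairs, while the Acvr1b difference is larger in replicates 3 and 4 than in 1 and 2.

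A wider list of 92 further pathway genes was read from the same fit to show where the members stand, and 71 of these were in the table. Of these, 17 were higher (23.9%) and 7 lower (9.86%), against 10.5% and 5.91% of all genes, and their median log2 fold change was 0.036. With the block, 24 were higher (33.8%) and 9 lower (12.7%), against 18.2% and 13.9% of all genes, so that the share of lower calls was above the background without the block and below it with the block. Among 13 further ligands, 4 rose (30.8%) and 3 fell (23.1%) without the block, and the roles were not tested against each other. Bmp3 rose by 0.43 (adjusted p = 0.000488), Bmp6, an inducer of hepcidin in liver, by 0.28 (0.0138), and Lefty2, a secreted inhibitor of nodal, by 0.27 (0.0151). The ligands Gdf9 (-0.37, adjusted p = 0.000546) and Amh (-0.30, 0.0147) and the stress-induced Gdf15 (-0.33, 0.00140) fell.

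Of 8 further genes for latency and processing, 4 rose (50%, against 10.5% of all genes). Thbs1, or thrombospondin 1, which can activate latent TGF-beta, rose from 7.29 ± 0.22 to 7.80 ± 0.20 (SD, n = 4), or by 0.51 (adjusted p = 0.0196). Its call was lost without pcDNA replicate 3, with 0.0528 as the adjusted p. Pcsk6, a convertase that matures precursors of this family, rose by 0.44 (adjusted p = 0.00134), whereas its relative Furin differed by 0.030 (interval -0.083 to 0.14). Fbn1, the fibrillin to which latent complexes attach, rose by 0.35 (0.0295), and its adjusted p was from 0.0544 to 0.0738 without pcDNA replicate 1, 3 or 4 or GRHL2 replicate 1. Exons of Gm9913 on the other strand cover 20.1% of the exonic bases of Fbn1, and the counting did not use strand. Of 10 further antagonists and related proteases, 2 rose (20%) and 1 fell (10%), against 10.5% and 5.91% of all genes. The BMP antagonists Nbl1 (from 7.34 ± 0.011 to 7.84 ± 0.14, log2 fold change 0.50, adjusted p = 0.00100) and Chrd, or chordin (0.37, 0.00103), were the 2 that rose.

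Of 9 further receptors and coreceptors, 3 rose (33.3%) and none fell, against 10.5% and 5.91% of all genes. The coreceptors Eng, or endoglin (0.32, adjusted p = 0.00424), and Rgma (0.29, 0.00399) were joined by the type I receptor Acvrl1 (0.17, 0.00256), each without overlap between the groups. Among 20 intracellular regulators 2 rose and 2 fell (10% each). Ppm1a, a phosphatase that acts on SMAD2 and SMAD3, fell by 0.29 (adjusted p = 0.00376), and Usp15, a deubiquitinase of the receptor complex, by 0.27 (0.0220). The Usp15 call was lost (0.0591 to 0.0657) without pcDNA replicate 1 or GRHL2 replicate 3 or 4. Ldlrad4, an inhibitor of TGF-beta signalling, had a log2 fold change of 0.25 (0.0178, or 0.0561 without pcDNA replicate 1), but exons of Fam210a on the other strand cover 52.1% of its exonic bases, so its value is uncertain. Of 11 further target genes, 2 rose (18.2%) and 1 fell (9.09%). Atoh8, a BMP target in liver, rose by 0.34 (0.00670) and Klf10, an early TGF-beta target, fell by 0.27 (0.0153). Ccn2 had a log2 fold change of 0.23 (0.0218, lost at 0.0560 to 0.0567 without pcDNA replicate 3 or 4 or GRHL2 replicate 4), and exons of Gm15270 on the other strand cover 23.2% of its exonic bases.

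**Figure D5:**
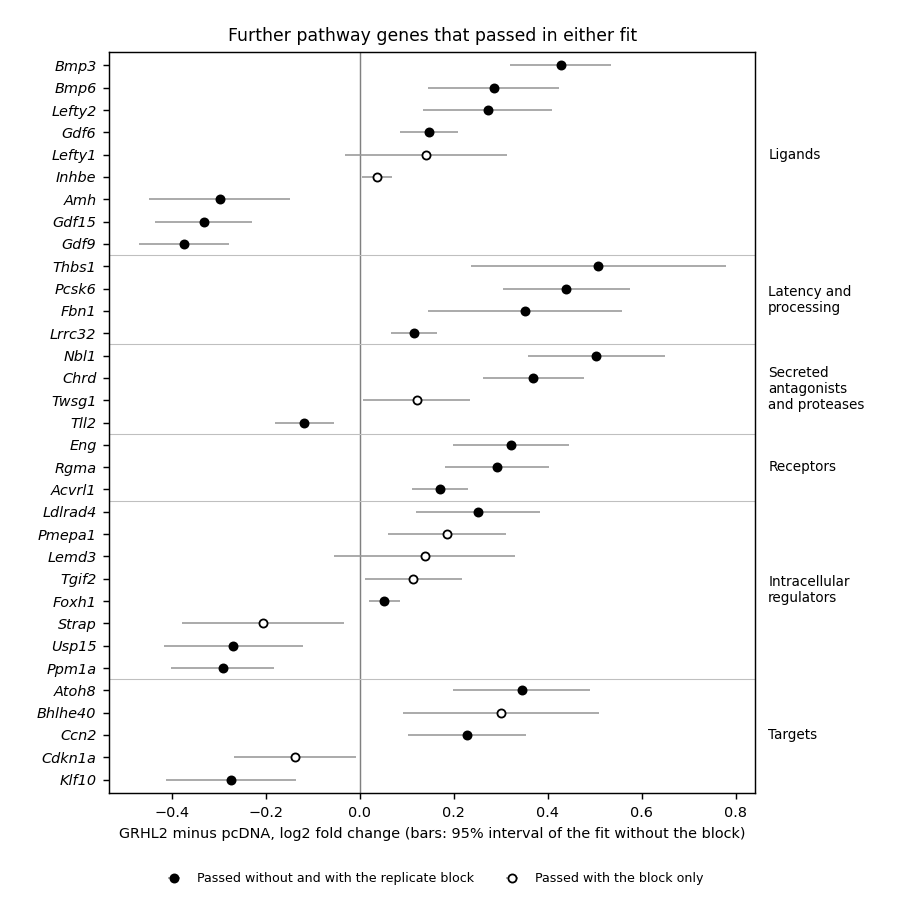
Log2 fold change (GRHL2 minus pcDNA, x axis) of the wider-list genes that passed in either fit, by role, with 95% intervals of the fit without the replicate block. Black points passed in both fits and open points with the block only; the 17 higher and 7 lower black points run from -0.37 (Gdf9) to 0.51 (Thbs1).

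Precision differed among the members. When the log2 of transcript length was added back to give the rlog level, 7 members lay under 5, among them the called genes Inhbb (4.17), Ltbp2 (4.52) and Grem1 (3.44), whereas Bmp1 was at 10.31 and Bmp7 at 7.38. Of the wider-list calls named above, Acvrl1 (3.25), Lefty2 (3.60), Bmp3 (4.24), Gdf9 (4.71) and Amh (4.81) also lay under 5. Exons of other genes covered parts of 12 members, by 9.34% of the exonic bases at most (Ltbp2).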

How the data were processed

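RNA-seq covered 8 BMEL samples (2 groups of 4, 48 h after transfection). The submitters' processing notes name HISAT2 2.2.1, HTSeq 0.9.1 and DESeq2 1.40.2, whereas the paper's methods give other versions of HISAT2 and DESeq2. By those methods, the authors mapped to mm10, counted reads on exons without strand, removed genes under 10 cumulated reads, and divided the rlog by mean transcript length. The methods name public data here, and that they cover BMEL is an assumption. The table deposited by the authors is named for FPKM but was read as log2 values: 4.81% are below 0, and adding the log2 of transcript length (GENCODE M21, 18428 genes) cut the variation of the lower limit between length groups from 2.47 to 0.098. Read depth is unknown, since rlog values keep no totals, so no interval rests on it.

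All 18671 genes were fitted with limma 3.58.1 in R 4.3.3 (2 groups, with a trend of the variance on the mean; p-values adjusted by Benjamini-Hochberg, threshold 0.05), without a pseudocount. Intervals are 95% and cover the spread between samples. On simulated independent samples in 2 groups of 4, 87 of 100 genes changed by 0.5 and 97 of 100 changed by 1 were recovered. Of 18471 unchanged genes 11 were called. The simulation held no deviation shared between samples and did not shrink the changes of low genes, so its rates may differ from those of these data. Samples sharing a replicate number deviated together (Pearson's r across genes 0.474 to 0.645 for the 4 pairs, mean -0.183 otherwise). Different numbers within replicates 1 and 2 (0.344 and 0.436) or within 3 and 4 (0.500 and 0.602) also did. Those across ran from -0.611 to -0.399. The number was taken to pair the samples, but these values separate replicates 1 and 2 from 3 and 4 more clearly than single numbers. The paper calls the replicates independent. GRHL2 replicate 3 correlated more with pcDNA replicate 4 (0.602) than with 3 (0.549). Every member is named, with values per sample for called members and those beyond 0.25 (log2). Smad6 was added to these after its values were seen. Of the wider list, genes called, without overlap and beyond 0.25 are named, others being named for contrast after their values were seen. Members and lists were chosen with earlier results of these data known. Alternatives were scaling, trend, a filter on low values, the block, a term for replicates 1 and 2 against 3 and 4, and each sample left out. Positions are GENCODE M21 (GRCm38).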

Additional observations from a re-analysis of the deposited data

Results flagged for a closer look

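In 7 of 86 groups of 4 samples (the 42 members and Grhl2 in each group), 1 sample stood apart from the other 3 by a gap above Dixon's limit (0.829 of the group's range), which chance alone exceeds in about 1 group in 20. Replicate 2 was the distant sample in 6 of these 7. In pcDNA replicate 2, Ltbp1 was the highest at 8.42 (nearest sample 8.27), Smad5 the highest at 8.66 (8.53), Skil the highest at 9.05 (8.78) and Id2 the lowest at 11.45 (11.89). In GRHL2 replicate 2, Skil was the highest at 8.78 (8.60) and Id3 the lowest at 8.75 (9.08). In GRHL2 replicate 4, Bmp4 was the highest at 6.89 (6.73). Of these genes, Bmp4 alone was called, and its log2 fold change without GRHL2 replicate 4 was 0.18, with an adjusted p of 0.0818 (limma).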

How the results depend on the processing

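The 7 called members kept direction and call under all 6 other fits that used every sample (a limit on fold size aside), and 5 of them (Bmp7, Inhbb, Bmp1, Ltbp2 and Grem1) also with each sample left out. With the replicate block, 15 members were higher and 6 lower, and over all genes 3396 were higher and 2589 lower. A term for replicates 1 and 2 against 3 and 4 gave 13 and 3 members (Tgfb3, Ltbp1, Tgfbr3, Smad1 and Smurf2 passed with the block but not with this term), and 3270 and 2478 genes. An equal upper quartile gave 10 higher members (Smad6, Tgfb3, Id4 and Ski did not pass as deposited) and 3064 higher genes. A log2 fold change beyond 0.25 as well left 4 higher and 0 lower members, and 807 higher genes. With each sample left out in turn, 5 to 7 members were higher and 0 to 2 lower, and 690 to 1036 genes were lower over the table (as few as 691 without pcDNA replicate 1, 690 without GRHL2 replicate 3, 722 without GRHL2 replicate 1 and 719 without GRHL2 replicate 4). Of the wider list, 13 to 18 genes were higher and 6 to 7 lower. Member calls that the block changed are given with each member above, and it changed no other member's call. The cause of these shifts was not tested. Depth is unknown, and the rlog understates both differences and spreads of low members such as Id4, Grem1, Tgfbi and Inhbb.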
